A study of Zea mays with 9 samples.

Results

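The transcripts of 3 yellow stripe transporter genes, ys1 (LOC541800), ysl12 (LOC100505456) and ysl14A (LOC100272237), were followed across 9 RNA-seq libraries of maize leaves, out of 30184 genes in the normalized table. These 3 genes were selected on their normalized counts in these same libraries, the differences between groups and the spread between pools included, so those values are given as a description and carry no test. In each comparison all 3 passed the filter on low values, a normalized count of 10 or more in 3 or more of its 6 libraries. The other 2 genes that the annotation names as members of the family, ysl11 (LOC100526748) and ysl17 (LOC100280197), had no row in the normalized table, and their TPM values (transcript abundance scaled by length and depth) reached at most 0.0268 and 0.0232.

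The plants were seedlings of the hybrid CG108 x CG102, and each library was made from the second leaves of 3 plants aged 9 days, pooled. Seedlings of the biological low R:FR group (W) stood among a surrogate weed, a sward of grasses, that lowered the ratio of red to far-red light (R:FR) to about 0.6. Those of the artificial low R:FR group (FR) received far-red lamps at about 0.6, and those of the weed-free control (WF) grew at about 1.5. These ratios are those of the labels, and the methods of the study give a higher one for the control and a slightly lower one for both treatments. Each group held 3 pools, named here W1 to W3, FR1 to FR3 and WF1 to WF3, and the p-values below measure the spread between such pools. The space around the seedling tube held potting mix and living grass in W and baked clay granules in FR and WF, so in W the light and these surroundings cannot be told apart.

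Maize ys1 is named for the striped, chlorotic leaves of its mutant. Its product is a membrane transporter that takes up ferric iron bound to phytosiderophores, the mugineic acid chelators that grasses make from nicotianamine and release from their roots. In maize the ys1 transcript is known to accumulate in roots and in leaves when iron is short. The related YSL proteins of grasses carry metals bound to nicotianamine or phytosiderophores between cells and along the vascular tissue, as studied mostly in rice. No role is given here for ysl12 or ysl14A beyond their place in this family.

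On the RefSeq annotation of the B73 assembly, ys1 lies on the minus strand of chromosome 5 (194813413 to 194816656). The gene ysl12 lies on the plus strand of chromosome 10 (134442944 to 134446843) and ysl14A on the plus strand of chromosome 4 (149866066 to 149871894). The deposited files per library give the same positions, and no annotated gene overlaps any of the 3. The gene next to ysl12 is ysl11, which starts 237 bases downstream on the same strand and was listed at 0 TPM in 8 of the 9 libraries. The 4 nearest genes around ys1 reached at most 0.267 TPM in any library.

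The libraries held 22775151 to 40283408 reads assigned to genes. The mean distance of W3 to the other libraries was 0.909 on the log2 scale, where the other 8 lay at 0.576 to 0.650. The transporter differences and the counts of calls that rest on W are therefore also given without W3. Group means, spreads, fold lists and most correlations include it. The read totals that the study lists for the weed-free control lie close to those of the libraries labelled FR, replicate by replicate, and the reverse. Group names follow the labels as deposited. Were these 2 labels exchanged, each difference of FR minus WF would change its sign, and those of W minus WF and W minus FR would change places. The spread between pools of 1 group would not change, apart from the names FR and WF. Markers of leaf tissue were abundant in every library, with summed TPM of 18802 to 29166 in W, 26350 to 27576 in FR and 23580 to 26506 in WF for 3 mesophyll genes. Of 3 genes on the list of root markers, rtcs was listed at 0 TPM in all 9 libraries and rth3 lay at 0.808 to 2.73 TPM. The third, Bk2L3, lay at 12.8 to 30.5 TPM. It was not among the root genes named when the markers were set out, and that it marks roots was not shown here. Bk2L3 was lower in FR than in WF, by a log2 difference of -0.78 (SE 0.17, limma adjusted p = 0.0240), and its part in the values below was not tested.

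The level of ys1 differed more between pools of the same group than for almost any other gene. Its normalized counts were 7829, 335 and 472 in W1, W2 and W3, 2216, 332 and 921 in FR1, FR2 and FR3, and 52.8, 75.4 and 391 in WF1, WF2 and WF3. W1 stood far above the other W pools, FR1 above the other FR pools and WF3 above the other weed-free pools. The highest library exceeded the lowest 148-fold, and within a group the highest pool exceeded the lowest 23.3-fold in W, 6.68-fold in FR and 7.41-fold in WF. The lowest values rested on 59 reads in each of WF1 and WF2, and the highest on 6193 reads in W1. In bulk leaf RNA, a change in the share of cells that express a gene and a change in its RNA per cell cannot be told apart.

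**Figure D1:**
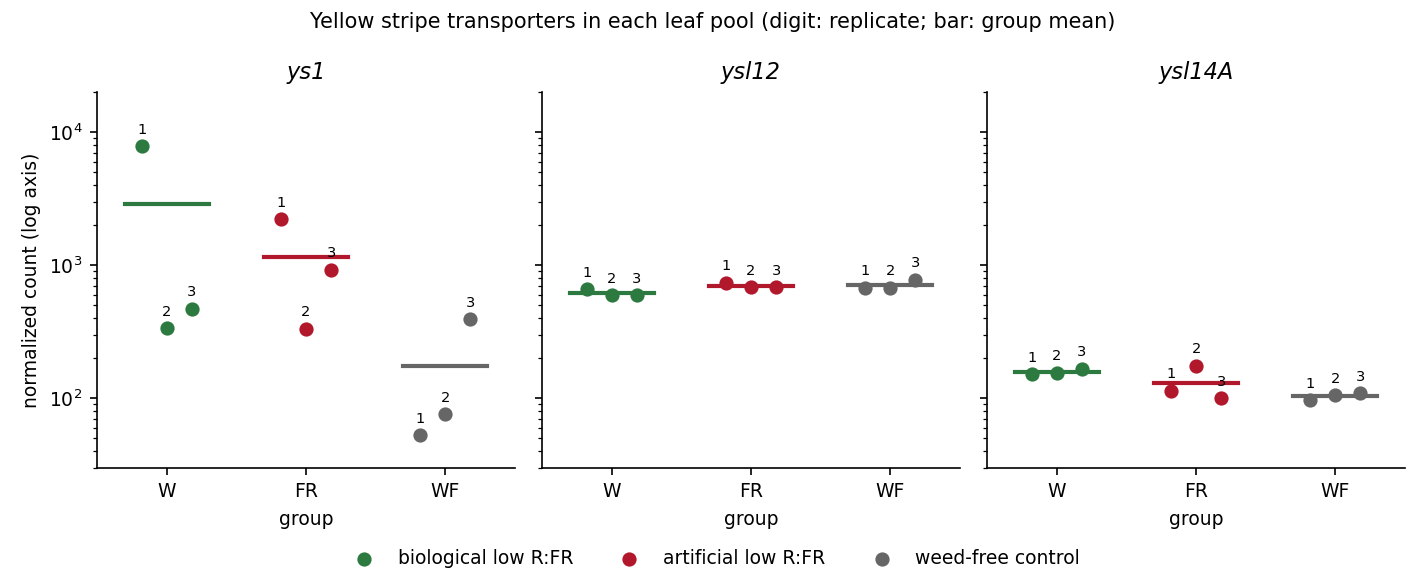
Normalized counts of ys1, ysl12 and ysl14A in each leaf pool, on a log axis; the points are the 3 pools of W, FR and WF, numbered by replicate, and the bars are group means. The ys1 points span 52.8 to 7829, whereas those of ysl12 lie between 593 and 778 and those of ysl14A between 96.7 and 175.

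Group means of ys1 were 2879 ± 4288 in W, 1156 ± 964 in FR and 173 ± 189 in WF (SD, n = 3 each). The SD exceeded the mean in both W and WF. On the log2(normalized count + 1) scale, W minus WF was 3.20 (SE 1.27), FR minus WF was 2.91 (SE 0.80) and W minus FR was 0.29 (SE 1.24). The groups overlapped in each of the 3 comparisons. The 391 of WF3 exceeded both the 335 of W2 and the 332 of FR2, and the 2216 of FR1 lay between W2 and the 7829 of W1.

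Single pools decided the size of these ys1 differences. Without W1, W minus WF came to 1.77, and without WF3 it came to 4.07, while without W3 it was 3.79. FR minus WF ranged between 2.24 without FR1 and 3.78 without WF3. The sign of W minus FR turned with the pool left out: it was -1.14 without W1, -0.41 without FR2, 1.13 without W2, 0.96 without FR1 and 0.88 without W3. Between pools of the same number, ys1 was 1.82 higher in W1 than in FR1 on the log2 scale, 0.01 higher in W2 than in FR2 and -0.96 in W3 minus FR3.

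**Figure D2:**
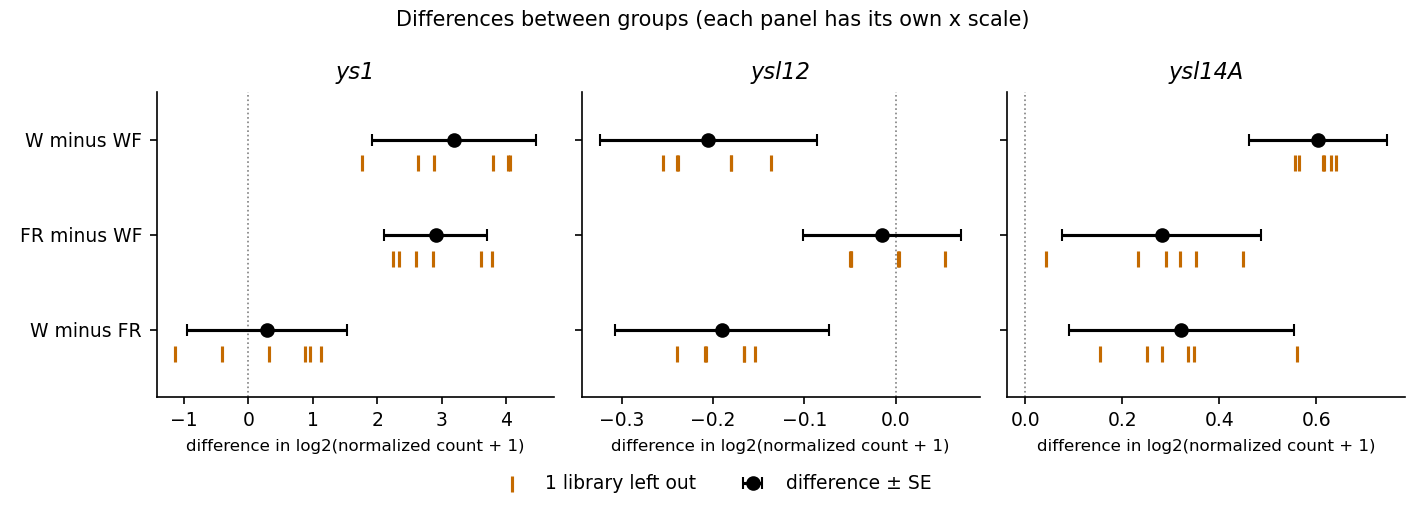
Differences between groups in log2(normalized count + 1) for the 3 transporters; black points with bars are the difference and its standard error, and orange ticks are the values with 1 library left out. For ys1 the ticks of W minus FR lie on both sides of 0, at -1.14 to 1.13, and each panel has its own x scale.

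Transcripts of ysl12 were nearly level. Normalized counts were 657, 593 and 593 in W1, W2 and W3, 736, 683 and 684 in FR1, FR2 and FR3, and 675, 675 and 778 in WF1, WF2 and WF3. All W pools lay below all FR and all WF pools, while FR and WF overlapped. Means were 614 ± 37.2 in W, 701 ± 30.5 in FR and 709 ± 59.5 in WF (SD, n = 3 each). W minus WF was -0.21 (SE 0.12) on the log2 scale, W minus FR was -0.19 (SE 0.12) and FR minus WF was -0.01 (SE 0.09). Without W3 the first was -0.18 and the second -0.17. In TPM, W minus FR was -0.28, farther from 0 than in normalized counts.

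The level of ysl14A was highest in W. Normalized counts were 152, 155 and 166 in W1, W2 and W3, 114, 175 and 99.5 in FR1, FR2 and FR3, and 96.7, 104.8 and 109 in WF1, WF2 and WF3. All W pools lay above all WF pools, and FR spanned both, with FR2 the highest of the 9 libraries. Means were 158 ± 7.77 in W, 130 ± 40.3 in FR and 103 ± 6.24 in WF (SD, n = 3 each). W minus WF was 0.60 (SE 0.14) on the log2 scale and stayed between 0.56 and 0.64 when any 1 library was left out, at 0.56 without W3. FR minus WF was 0.28 (SE 0.21) and came to 0.04 without FR2, 0.45 without FR3. W minus FR was 0.32 (SE 0.23), which became 0.56 without FR2, 0.15 without FR3 and 0.28 without W3.

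Across all genes tested, the pools of W and WF did not overlap in 17.7%, those of FR and WF in 35.4% and those of W and FR in 15.8%. Because these contrasts were among the values that chose the 3 genes, nothing is read from the overlap of their own pools.

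Measured per length of transcript, the order of the 3 genes changed between libraries. TPM of ys1 was 142, 6.11 and 6.99 in W1, W2 and W3, 40.6, 5.49 and 17.4 in FR1, FR2 and FR3, and 0.970, 1.34 and 7.22 in WF1, WF2 and WF3. That of ysl12 was 9.08 to 12.2 in W, 11.8 to 14.0 in FR and 11.8 to 14.5 in WF, and that of ysl14A was 2.48 to 2.81 in W, 1.87 to 2.91 in FR and 1.71 to 1.95 in WF. Thus ys1 was the most abundant of the 3 in W1, FR1 and FR3, lay between ysl12 and ysl14A in W2, W3, FR2 and WF3, and was the least abundant in WF1 and WF2. In W1 it stood at 11.7 times the TPM of ysl12, against 0.0791 times in WF1. Between ysl12 and ysl14A the order was the same in all 9 libraries, with ysl12 at 3.66 to 7.46 times the TPM of ysl14A.

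The spread between pools was set beside that of all 24093 genes that reached 10 normalized counts in 3 or more of the 9 libraries. The SD of log2 values of ys1 was 2.49 in W, where the median gene had 0.307, 1.37 in FR, where it had 0.178, and 1.53 in WF, where it had 0.144. Pooled over the groups it was 1.86, and 25 genes had a larger one. Among the 18051 genes that averaged 50 normalized counts or more, ys1 ranked 14th by this spread. The pooled SD of ysl12 was 0.092, below that of the median gene at 0.264, and that of ysl14A was 0.253. The spread of ysl14A was uneven, with an SD of 0.070 in W, 0.424 in FR and 0.087 in WF.

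**Figure D3:**
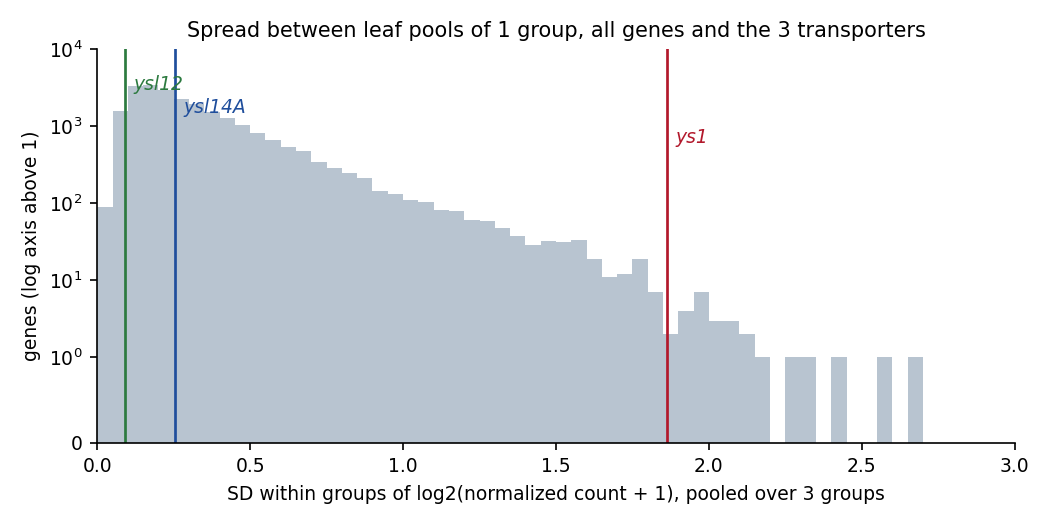
Number of genes, on a log axis, by the SD within groups of log2(normalized count + 1), pooled over the 3 groups; vertical lines mark the 3 transporters. The line of ys1 stands at 1.86 in the thin right tail, that of ysl14A at 0.253 and that of ysl12 at 0.092 on the left.

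Few genes stood out in the same pools as ys1. In W1, 35 of the 18051 genes were at least 2-fold above both other W pools, and ys1, at 16.6-fold over the next pool, ranked 2nd among all genes. In FR1, 46 genes were that far above, with ys1 at 2.41-fold and rank 28, and in WF3, 38 genes were, with ys1 at 5.14-fold and rank 6. Of these genes 13 were high in both W1 and FR1, which is 37.1% of the first list and 28.3% of the second. Besides ys1, 1 gene was at least 2-fold above in W1, FR1 and WF3 alike, LOC100383726 on chromosome 8 (172516040 to 172518142). These pools were picked after the values of ys1 had been seen.

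The genes whose pattern was most like that of ys1 were ranked by Pearson's r of log2(normalized count + 1) over the 9 libraries, among genes with a mean of at least 50. The libraries of 1 group share a treatment, and ys1 was chosen on these same values, so r is a description. Of 18050 genes, 29 had an r of at least 0.9 with ys1 and 54 an r of -0.9 or lower. For ysl12 these numbers were 3 and 2, and for ysl14A 26 and 9. The 10 genes most like ys1 had an r of 0.928 to 0.985, and 9 of them were highest in W1, as ys1 was.

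The gene most like ys1 was LOC100280744 on chromosome 10, with an r of 0.985 (Spearman's rho 0.950). Its normalized counts were 466, 13.5 and 32.3 in W1, W2 and W3, 183, 21.9 and 100.3 in FR1, FR2 and FR3, and 0.895, 3.83 and 19.0 in WF1, WF2 and WF3. Like ys1 it was highest in W1, then FR1 and FR3, and lowest in WF1. Next came LOC100383726 (r 0.980), with 1766, 34.3 and 65.4 in W1, W2 and W3, 327, 16.0 and 81.1 in FR1, FR2 and FR3, and 0.895, 0 and 36.0 in WF1, WF2 and WF3. The files and the annotation give no name to either gene.

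The third was LOC100283193 on chromosome 6 (r 0.976), which was also highest in W1, then FR1 and FR3, over a far smaller range (rho 0.90). Its counts were 334, 261 and 257 in W1, W2 and W3, 300, 244 and 289 in FR1, FR2 and FR3, and 199, 197 and 244 in WF1, WF2 and WF3. Behind it came LOC100502313, GT1 (LOC542140), LOC100281444, LOC100280572, LOC100284364, LOC103654120 and LOC100279992. On chromosome 10, LOC100280572 (64760900 to 64761777) lies close beside LOC100280744 (64761904 to 64762688). Whether these 2 share reads was not tested. Highest in this ranking among genes with a name was GT1 on chromosome 1 (r 0.939), with 7687, 1219 and 2571 in W1, W2 and W3, 5061, 1051 and 2476 in FR1, FR2 and FR3, and 966, 903 and 1652 in WF1, WF2 and WF3. The next named genes were COAC1 (r 0.920), CNR7 (0.915), MPAO (0.906), a polyamine oxidase, and orc3 (0.890), a subunit of the complex that binds replication origins.

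At the opposite end stood LOC100382079 on chromosome 5 (r -0.978), LOC100282411 (-0.972), LOC100275523 on chromosome 6 (-0.970), LOC100272896 (-0.963) and LOC103650117 (-0.958). LOC100275523 ran in the exact reverse order of ys1 over the 9 libraries (rho -1.0), with 2000, 5277 and 4919 in W1, W2 and W3, 3587, 5644 and 4482 in FR1, FR2 and FR3, and 7359, 7121 and 5073 in WF1, WF2 and WF3. LOC100382079 gave 1157, 2157 and 2013 in W, 1612, 2477 and 1730 in FR, and 2825, 2920 and 2097 in WF. All 5 were lowest in W1.

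Group means were then removed, so that only the differences between pools of 1 group counted. Of 18050 genes, 45 now had an r of at least 0.9 with ys1 and 96 an r of -0.9 or lower. For ysl12 these numbers were 16 and 23, and for ysl14A 53 and 22. With 3 pools per group, some of so many genes reach such an r without any relation. How many would do so was not worked out, so nothing is read from these counts. LOC100280744 (0.984), LOC100283193 (0.969) and LOC100383726 (0.968) were among the 10 highest here too. The others were LOC100193084, LOC100279291, LOC100280282, LOC100383208, LOC100383074, LOC100382860 and nbis-pseudogene-937. Lowest were LOC100382091 (-0.996), LOC100275523 (-0.982), ZCYB (LOC100273009, -0.982), LOC100283179 (-0.979) and LOC100276602 (-0.978). The 5 highest with a name were COAC1 (0.926), GT1 (0.924), the histone deacetylase gene Hda1 (0.917), DGAT1-2 (0.910), a diacylglycerol acyltransferase of oil synthesis, and ysl12 (0.904).

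Among the 3 transporters, ys1 and ysl12 had an r of 0.076 over the 9 libraries and of 0.904 within groups. In normalized counts W1, FR1 and WF3 were the highest pools of their groups for both genes. The pools of W and of FR stood in the same order for both, but by near ties of ysl12. It had 592.92 in W2 and 592.95 in W3, and 682.9 in FR2 and 683.6 in FR3. In TPM ysl12 was higher in W2 (10.9) than in W3 (9.08), the reverse of ys1 (6.11 and 6.99). Within a group ysl12 moved by 1.08-fold to 1.15-fold and ys1 by at least 6.68-fold. For ys1 and ysl14A, r was 0.326 over the 9 libraries and -0.303 within groups, and for ysl12 and ysl14A it was -0.570 and -0.060. Leaving out W1 or W3, the r of ys1 and ysl12 within groups was 0.907 and 0.896.

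**Figure D4:**
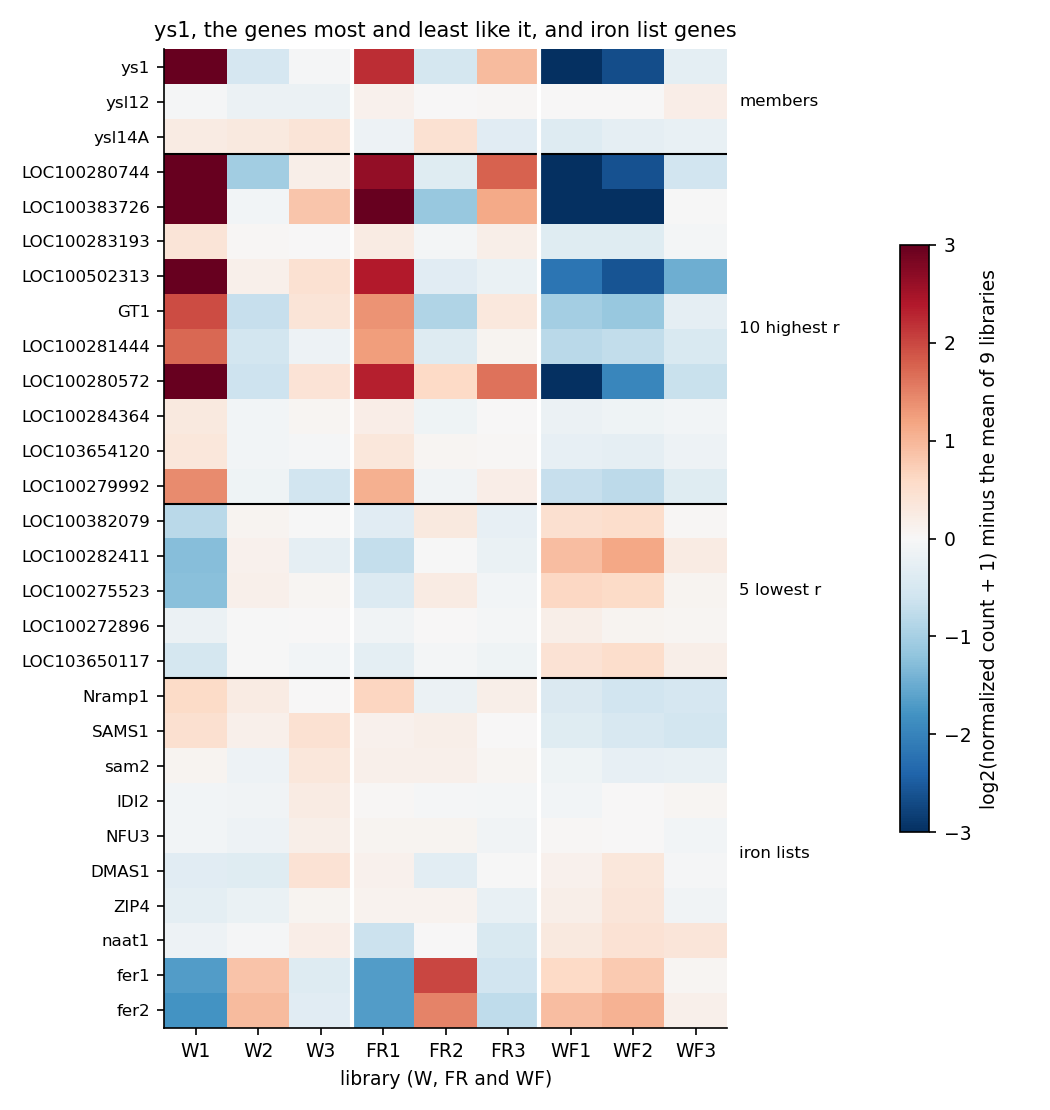
Each cell is log2(normalized count + 1) of a gene in a library minus the mean of the gene over the 9 libraries, with colours that saturate at the ends of the scale; rows are the 3 transporters, the 10 genes with the highest and the 5 with the lowest r with ys1, and the iron list genes ordered by r. The rows of fer1 and fer2 are dark blue in W1 and FR1, where ys1 is dark red.

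The ferritin genes fer1 and fer2 ran opposite to ys1. Ferritin is the plastid protein that stores iron in leaves, and in maize its transcripts are known to accumulate with iron supply. Normalized counts of fer1 (LOC542553) were 1421, 8217 and 3469 in W1, W2 and W3, 1410, 18319 and 3076 in FR1, FR2 and FR3, and 6863, 7862 and 4745 in WF1, WF2 and WF3. Those of fer2 (LOC542392) were 153, 1019 and 415 in W1, W2 and W3, 166, 1496 and 313 in FR1, FR2 and FR3, and 1013, 1096 and 585 in WF1, WF2 and WF3. In W and in FR the pools stood in the exact reverse of their order for ys1, and in WF the pool highest in ys1, WF3, was lowest in both ferritin genes. Pools of W and FR with the same number deviated weakly together across genes (correlations of 0.124, 0.255 and 0.146). With ys1 in the order 1, 3, 2 in both groups, the orders in W and in FR cannot be counted as independent of each other.

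Over the 9 libraries, r with ys1 was -0.760 for fer1 (rho -0.833) and -0.862 for fer2 (rho -0.883). Within groups it was -0.799 and -0.859. Without W1 and WF1, the libraries farthest from the median of ys1, it was -0.724 and -0.832, and without W3 it was -0.766 and -0.867. Both ferritin genes also moved together, with an r of 0.978. Over the 9 libraries, neither was among the 54 of 18050 genes with an r of -0.9 or lower with ys1. How many genes reached the r of fer1 or fer2 was not counted. The highest pool exceeded the lowest 5.78-fold in W, 13.0-fold in FR and 1.66-fold in WF for fer1, and 6.66-fold, 9.04-fold and 1.88-fold for fer2.

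**Figure D5:**
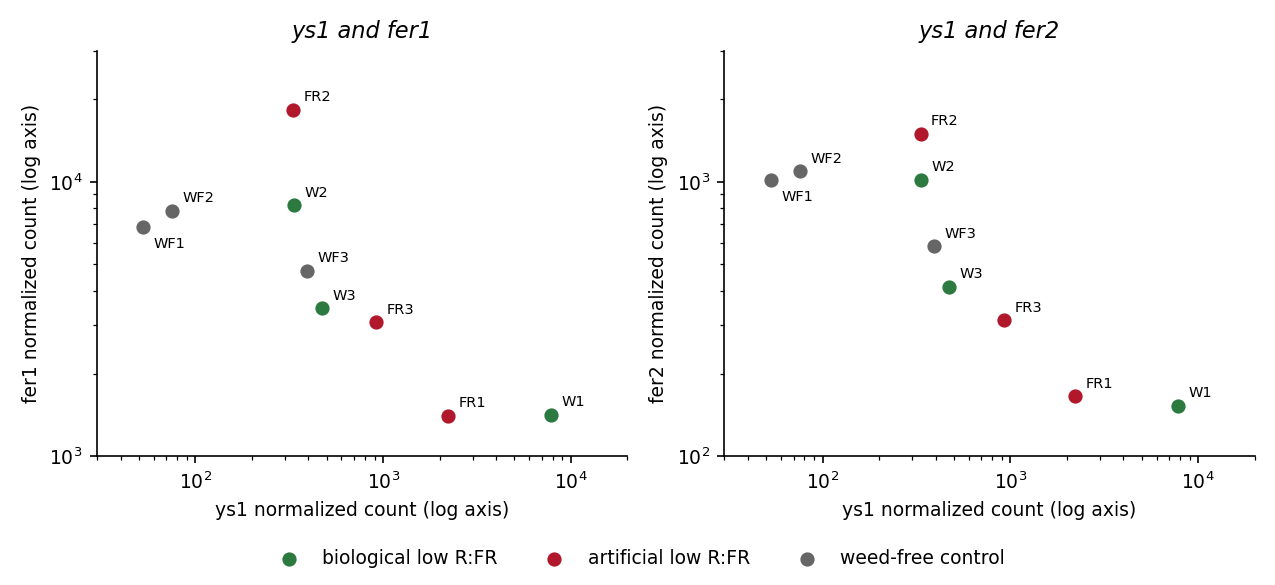
Normalized counts of fer1 (left) and fer2 (right) against those of ys1 in the 9 libraries, on log axes, coloured by group. W1 and FR1, highest in ys1 at 7829 and 2216, are lowest in fer1 at 1421 and 1410, and FR2, at 332 in ys1, is highest in fer1 at 18319.

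Summed TPM of the 3 vein and phloem markers had an r of 0.669 with ys1 over the 9 libraries. The sum was 181 to 207 in W, 184 to 196 in FR and 153 to 198 in WF. Most of this sum was sut1, at 144 to 178 TPM in W, 152 to 164 in FR and 120 to 151 in WF. Normalized counts are another unit than TPM, so r in them cannot be set directly against that of the sum. In normalized counts the single genes had an r of 0.421 (sut1), 0.168 (sh1) and 0.171 (sus1). Within groups these were -0.068, 0.393 and 0.753. For the summed TPM of the meristem and dividing cell markers r was 0.535. The sum was 4.02 to 5.17 in W, 4.34 to 5.59 in FR and 4.15 to 5.05 in WF over 10 genes, of which 3 reached 0.5 TPM. These 3, again in normalized counts rather than TPM, had an r of 0.200 (cdc2), 0.588 (PCNA) and -0.282 (H4C13). Within groups these were -0.050, 0.253 and 0.311. Here kn1, which defines the shoot meristem, reached at most 0.121 TPM. For the summed TPM of mesophyll, bundle sheath, epidermis and root markers r was 0.343, 0.041, 0.134 and -0.070. The root sum came mostly from Bk2L3. The part of any of these in the ys1 values was not tested.

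The other genes of iron handling were taken from lists of phytosiderophore synthesis and export, the methionine cycle that feeds it, other iron and zinc transporters, and iron storage and iron-sulfur assembly. The annotation named 13 such genes, and 10 passed the filter in each comparison. Nicotianamine synthase makes the precursor of phytosiderophores, and of its genes the lists held nas1 and nas2 alone. Both were at or near 0: nas2 had 9.35 normalized counts in W2, 1.79 in WF1 and 0 in the other libraries. Any gene of this enzyme without a name in the annotation was not looked up. YS3, named after a maize mutant that fails to release phytosiderophores, was listed at 0 TPM in all 9 libraries.

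Under artificial low R:FR, 3 of the 10 genes were higher than in the weed-free control and 1 was lower (limma, Benjamini-Hochberg adjusted p under 0.1 over all 23450 genes tested), where 9.98% of all genes were higher and 11.9% lower, 21.8% in either direction. Those higher were Nramp1, of a family of divalent metal transporters, and SAMS1 and sam2, which make S-adenosylmethionine, the substrate of nicotianamine synthase. The one lower was naat1, nicotianamine aminotransferase, which catalyses the first step after nicotianamine in phytosiderophore synthesis. The median difference over the 10 genes was -0.08 on the log2 scale, against 0.01 over all genes.

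SAMS1 averaged 11739 ± 642 normalized counts in FR and 7865 ± 503 in WF (SD, n = 3 each), a log2 difference of 0.58 (SE 0.08, limma adjusted p = 0.00652). It passed with any 1 library left out. For naat1 the values were 82.8, 132 and 94.2 in FR1, FR2 and FR3 and 160, 176 and 169 in WF1, WF2 and WF3, a difference of -0.73 (SE 0.18, limma adjusted p = 0.0305). It no longer passed without WF2 (limma adjusted p = 0.107). Nramp1 gave 78.9, 43.9 and 56.6 in FR1, FR2 and FR3 and 36.7, 33.2 and 35.1 in WF1, WF2 and WF3, a difference of 0.72 (SE 0.24, limma adjusted p = 0.0828), and sam2 differed by 0.32 (SE 0.11, limma adjusted p = 0.0861). Neither of these 2 passed when any of FR1, FR3, WF1, WF2 or WF3 was left out.

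Nramp1 had the highest r with ys1 among the 10 genes, 0.858 over the 9 libraries (rho 0.767) and 0.708 within groups. For SAMS1 r was 0.681 and within groups 0.175, for naat1 -0.701 and -0.588, and for ZIP4, of a family of zinc and iron transporters, -0.672 and -0.530. The other 4 besides the ferritin genes lay between -0.389 (DMAS1, deoxymugineic acid synthase) and 0.502 (sam2).

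The ferritin genes did not pass between FR and WF, with a difference of -0.56 (SE 0.75) for fer1 and -1.02 (SE 0.66) for fer2. Single pools moved these values in both directions. Without FR2, the FR pool highest in both genes, the differences were -1.61 (SE 0.30, limma adjusted p = 0.00955) and -1.92 (SE 0.30, limma adjusted p = 0.00489). Without FR1, the FR pool lowest in both, they were 0.24 and -0.34, and neither passed. With FR2 kept, the FR mean of fer1, 7602 ± 9319, lay above the WF mean of 6490 ± 1591, opposite in sign to the log2 difference.

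Under biological low R:FR, 0 of the 10 genes passed against the weed-free control by limma, where 0.0466% of all 23600 genes tested did. At an unadjusted p under 0.05 there were 2, SAMS1 with a difference of 0.82 (limma adjusted p = 0.131) and Nramp1 with 0.77 (limma adjusted p = 0.345). By edgeR 0 passed and by DESeq2 1, SAMS1. Without W3, 3 passed by limma: SAMS1 (0.78, SE 0.11, adjusted p = 0.0188), Nramp1 (0.91, SE 0.23, adjusted p = 0.0719) and DMAS1, which was lower (-0.49, SE 0.12, adjusted p = 0.0718). Without W2, 1 passed, SAMS1. The median difference over the 10 genes was -0.11, against -0.05 over all genes.

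Between biological and artificial low R:FR, 0 of the 10 genes passed by limma, as did 0.0% of all 23476 genes. None had an unadjusted p under 0.05, and 0 passed by DESeq2 or edgeR. The median difference was -0.03, against -0.04 over all genes. Whether any difference against the control itself differed between W and FR is given by this comparison alone, and both share the control libraries.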

How the data were processed

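RNA-seq libraries of 9 leaf pools were analysed, 3 per group, grouped by their labels. Bowtie2 2.4.3, HTSeq 0.13.5 and DESeq2 1.30.1 are named in the submitters' processing notes, whereas the methods of the study describe another aligner and counter. Across 30184 genes, the authors deposited signal values, the reads of each gene scaled in every library by its DESeq2 size factor (normalized counts). They also deposited TPM, FPKM and coverage values (a second signal) per library. TPM was used for levels between genes, FPKM and coverage only to match files to columns. Their comparison tables, with fold changes and p-values, were not used. Within a tolerance of 0.01, 100% of normalized values were whole multiples of 1 read, so reads were recovered. FR2, whose step of 0.997 is too near 1, was left out of tests on reads.

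With limma 3.58.1 (trend), log2(value + 1) was compared between 2 groups at a time, over genes with at least 10 in at least 3 of 6 libraries, and called at a Benjamini-Hochberg adjusted p under 0.1. On simulated data the script was tested beforehand. DESeq2 1.42.0 and edgeR 4.0.16 on the recovered reads were alternatives, as were pseudocounts of 0.5 and 5, TMM normalization, TPM values with a pseudocount of 0.1, no filter, an adjusted p under 0.05, a joint fit of all 9 libraries, a block on the replicate number, and leaving out each library in turn. Likeness rankings without W1 and without W3 were added later. Of the 6 lists of iron genes, that of iron regulators matched 0 named genes. The genes named follow a rule: the family, called list genes (up to 4 per direction), and the 10 highest, 5 lowest and 5 highest named by r with ys1 in each ranking. The pools in which ys1 was high and the other genes given lie outside it. The transporters and lists were chosen with earlier results of these data known. RefSeq (Zm-B73-REFERENCE-NAM-5.0) matched 29180 of the identifiers and names 2447 of them, which limits the lists.

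Same-numbered pools deviated weakly together between W and FR (correlations of 0.124, 0.255 and 0.146 after group means were removed). Between W and WF these were 0.124, -0.007 and 0.056, so number 1 alone was as high, and between FR and WF -0.003, 0.083 and 0.095. Pools of unlike number were not compared. The study describes its experiments as laid out in randomized blocks, but neither it nor the labels say that the replicate numbers of the libraries mark those blocks.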

Additional observations from a re-analysis of the deposited data

Results flagged for a closer look

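The nicotianamine synthase gene nas1 had no row in the normalized table, and in the files per library it was at 0.331 TPM in W2 and listed at 0 in the other 8 libraries, the weed-free control included. It is given because it lies outside the comparisons, and the related nas2 was also highest in W2.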

How the results depend on the processing

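Of 126 values of the transporter differences under alternatives, 125 moved by less than the SD between pools and 120 kept their sign. The exception in size was ysl12 in W minus FR, at -0.28 with TPM values. Leaving out 1 of 3 pools cannot move a difference by more than this SD. The replicate block and the joint fit cannot move it at all, as the groups are balanced. These settings were thus bound to count as small moves, and the 125 is no sign of stability for any of the 3 genes. For ys1 this SD was 1.45 to 2.07 on the log2 scale, a limit so wide that the count says little about this gene. A move of W minus FR from 0.29 to -1.14 without W1 lay within it. With 1 library left out, ys1 ranged over 1.77 to 4.07 in W minus WF, 2.24 to 3.78 in FR minus WF and -1.14 to 1.13 in W minus FR. For ysl12 these ranges were -0.25 to -0.14, -0.05 to 0.05 and -0.24 to -0.15, and for ysl14A 0.56 to 0.64, 0.04 to 0.45 and 0.15 to 0.56. Over iron list genes, W against WF gave 1 call with all 9 libraries in 1 fit, 1 with DESeq2 and 0 to 3 with 1 library left out. FR against WF gave 4 calls, 2 with all 9 libraries in 1 fit, 2 without a filter, 2 at an adjusted p under 0.05, and 1 to 6 with 1 library left out. The 6 calls of DESeq2 and edgeR, and those without FR2, include fer1 and fer2, and each of these 3 fits lacks FR2. W against FR gave 0 throughout. With the replicate number as a block (replicate block), these counts were 0, 4 and 0, and no call changed. The ys1 value in W minus FR stayed at 0.29, as it must, since each group holds every replicate number once. Over all genes, DESeq2 called 449 in W against WF, 4407 in FR against WF and 250 in W against FR, edgeR 12, 5472 and 0, and limma 11, 5121 and 0. Without W3 limma called 1936 in W against WF and 104 in W against FR.

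Of the 10 genes most like ys1 over 9 libraries, 5 were shared with the ranking by Spearman's rho, 4 with that on TPM values, and 3 with that lacking W1 and WF1. For the ranking within groups these numbers were 4, 2 and 2. Leaving out W1 or W3 alone, 3 to 4 were shared over the libraries and 1 to 2 within groups. The cause of these changes was not tested. With 3 pools per group and an SD of ys1 of 2.49 on the log2 scale in W, its differences between groups are known no more closely than their standard errors of 0.80 to 1.27.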
